A study of Homo sapiens with 9 samples.

Results

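The transcripts described here are those of 10 genes of the negative arm and the output arm of the circadian clock. They are the period genes PER1, PER2 and PER3, the cryptochromes CRY1 and CRY2, the REV-ERB nuclear receptors NR1D1 and NR1D2, and the PAR-bZIP factors DBP, TEF and HLF. They were taken by name from a count table of 58734 Ensembl genes, and all 10 passed the filter on low counts, as did 16686 genes of the table. The cells were HEK293T, a line derived from human embryonic kidney in which SV40 large T antigen is expressed, transfected for 36 h with 10 nM of siRNA against SIN3A (labelled Sin3A RNAi knockdown), siRNA against SIN3B, or control siRNA. There were 3 poly-A selected, stranded RNA libraries in each group. The protocol text of every sample names the control siRNA last, so the groups rest on the sample titles, and the labels do not say whether the libraries of a group came from separate transfections. The p-values therefore rest on differences among these libraries alone, and part of those differences may be technical.

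In the mammalian clock, the activators CLOCK and BMAL1 bind E-box sequences and switch on the PER, CRY, NR1D and DBP genes. The PER and CRY proteins return to the nucleus and repress CLOCK and BMAL1, and PER complexes are known to recruit the SIN3 scaffold with the histone deacetylase HDAC1 to do so. The REV-ERB receptors repress BMAL1 in a second loop through the corepressor NCOR and HDAC3, while DBP, TEF and HLF activate genes with D-box sequences. All libraries come from a single time after transfection, so rhythm and phase were not measured.

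Of the 10 genes, 4 passed the test in at least 1 knockdown against control. Per comparison the number was near the background, as 10.8% to 12.2% of all tested genes passed in each direction. PER1 rose in SIN3A knockdown and fell in SIN3B knockdown, to 124% and 66.8% of its control mean (3 libraries a group). HLF fell in SIN3A knockdown and rose in SIN3B knockdown, to 52.4% and 178% of its control mean. PER2 fell in both knockdowns, to 67.3% and 46.3%, and NR1D2 rose in SIN3B knockdown, to 137%. Of these changes, only the falls of PER1 and PER2 in SIN3B knockdown passed in all 19 alternative settings. The other 6 genes, PER3, CRY1, CRY2, NR1D1, DBP and TEF, passed the test in no comparison. The levels below are in CPM, the count of a gene relative to the total count of its library after TMM scaling, and a change is called where the edgeR quasi-likelihood p, adjusted by Benjamini-Hochberg over 16686 genes, is below 0.05.

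Library totals ran from 22542798 to 27084884 deposited counts, and 98% or more of the nonzero counts in each library were multiples of 4. A floor of 3 such steps, or 12 counts, lay at 0.442 to 0.552 CPM and covers counting error only. The lowest count of any of the 10 genes was 20, for HLF. SIN3A was at 44.9, 49.9 and 47.0 CPM in SIN3A knockdown, against 141, 147 and 149 CPM in control, so 32.5% remained. SIN3B was at 59.2, 53.8 and 52.3 CPM in SIN3B knockdown, against 100, 97.1 and 91.1 CPM in control, so 57.3% remained. The SIN3A knockdown libraries lay further apart than the others: the median absolute log2 ratio between libraries was 0.133 to 0.181 in SIN3A knockdown, against 0.082 to 0.096 in SIN3B knockdown and 0.0956 to 0.0989 in control. The pairs with replicate 1 of SIN3A knockdown gave the higher values, so the called changes of the 10 genes in that group are also given without it. All 8 markers of embryonic kidney lines were tested, at summed levels of 1080 to 1310, 1030 to 1090 and 1250 to 1370 CPM in SIN3A knockdown, SIN3B knockdown and control. VIM made up most of each sum. Of the 8, NEFM fell in both knockdowns (-0.79 ± 0.07 in SIN3A knockdown and -0.83 ± 0.07 in SIN3B knockdown), and KRT8 fell in SIN3A knockdown (-0.60 ± 0.13). EYA1 fell in SIN3A knockdown (-0.45 ± 0.12) and rose in SIN3B knockdown (0.43 ± 0.11), the order of groups of HLF. The other 5 were not called against control, and the part of these markers in the results was not tested. Of 13 markers of other cells, PTPRC, CD3E, HBB, COL1A2, CDH5 and MYH7 had no count in any library, and the 13 summed to 6.07 to 10.2, 8.96 to 10.8 and 9.38 to 11.6 CPM in the same order of groups. However, 5 of the 13 passed the filter on low counts. These were SLC17A7, COL3A1, ACTA1, GFAP and APOA1, at control means of 3.43, 2.66, 2.15, 1.31 and 0.28 CPM. HLF averaged 2.48 CPM in control.

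The promoter sequences of the called genes are shown because E-boxes and D-boxes are the elements through which the clock acts on these genes. RefSeq windows of 300 bases (250 before to 50 after a transcription start, GRCh38.p14) matched all 10 genes, with 15 windows among 35116. Each line gives the gene, and the capitals mark the motif.
PER1: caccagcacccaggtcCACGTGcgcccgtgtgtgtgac
PER2: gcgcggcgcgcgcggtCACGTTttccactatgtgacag
PER2: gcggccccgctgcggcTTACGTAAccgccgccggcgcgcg
NR1D2: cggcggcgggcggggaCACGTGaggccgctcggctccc
NR1D2: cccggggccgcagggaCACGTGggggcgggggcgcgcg
NR1D2: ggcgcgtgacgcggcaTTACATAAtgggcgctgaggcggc
HLF: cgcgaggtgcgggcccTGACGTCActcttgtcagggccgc

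The PER1 line lies at chr17:8152556-8152593 on the minus strand and holds the E-box CACGTG. The PER2 lines lie at chr2:238288786-238288823 and chr2:238288590-238288629 on the minus strand, and hold the E-prime box CACGTT and the D-box TTACGTAA, which spans the start site. The NR1D2 lines lie at chr3:23945950-23945987, chr3:23946000-23946037 and chr3:23945911-23945950 on the plus strand, with 2 E-boxes and the D-box TTATGTAA read on the other strand. The HLF line lies at chr17:55264937-55264976 on the plus strand and holds the cyclic AMP response element TGACGTCA. Both strands were searched for 6 motifs, which share no full match with each other. A gene is named below where at least 1 of its windows held the motif. CACGTG was held by 7.26% of all windows and by 4 of the 15 windows here, from PER1, NR1D2 and TEF. CACGTT was held by 5.34% and by 4 of the 15, from PER2, CRY1, CRY2 and NR1D1. TTATGTAA was held by 0.886% of windows (PER3 and NR1D2 here), TTACGTAA by 0.125% (PER2), the RORE core TAGGTCA by 1.85% (CRY2) and TGACGTCA by 1.85% (HLF). No window of DBP held any of the 6. Of the called genes, PER1 and NR1D2 thus shared the E-box and PER2 held the E-prime box, whereas HLF held neither. A match in a window is a description of letters only.

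**Figure D1:**
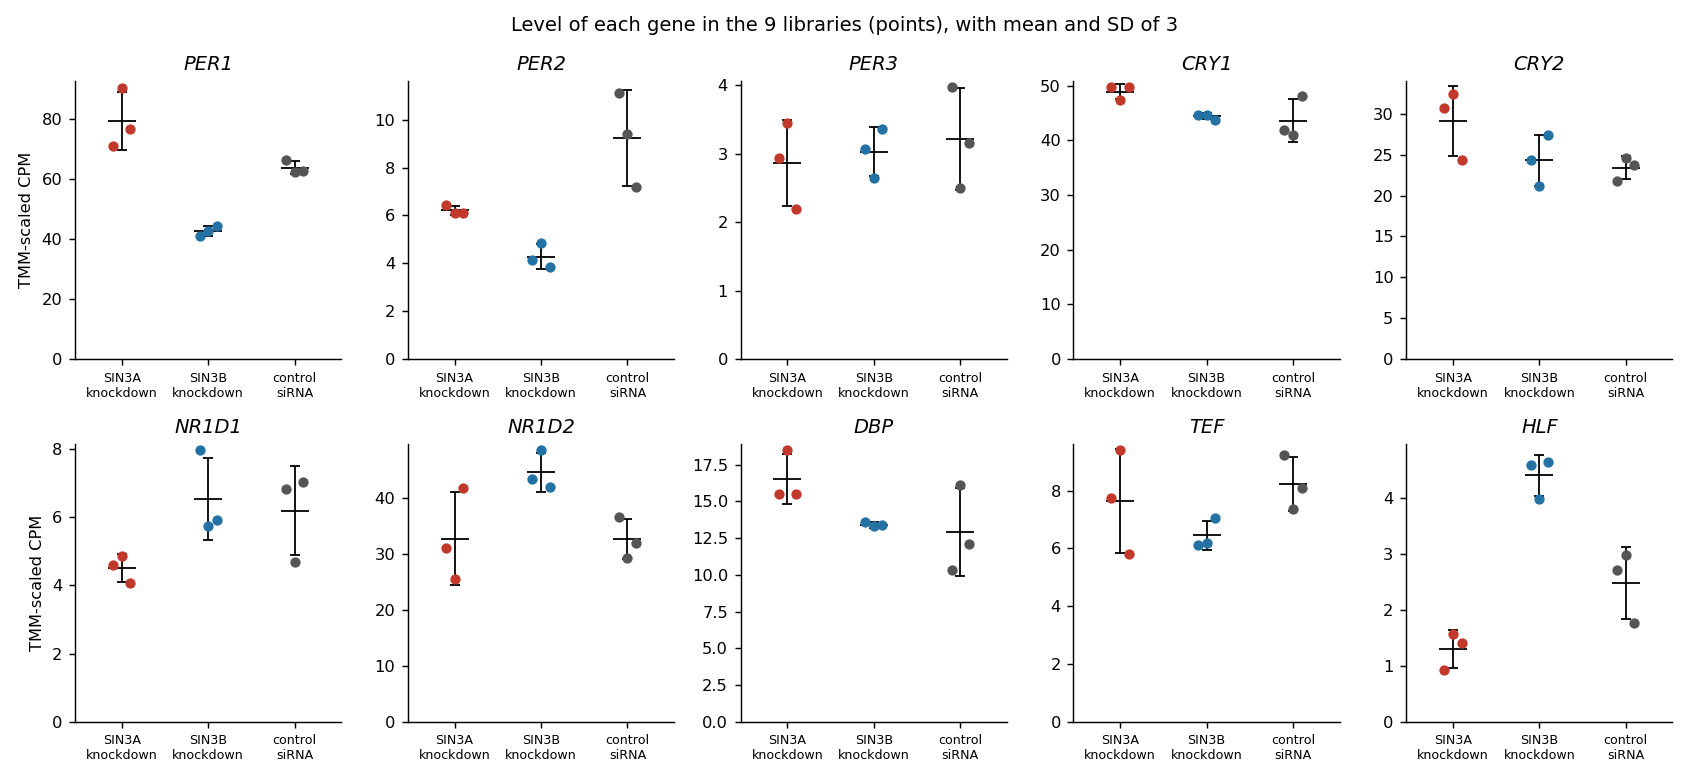
Level of each of the 10 genes (y axis, TMM-scaled CPM, from 0) in the 3 SIN3A knockdown, 3 SIN3B knockdown and 3 control libraries (points), with the group mean and SD (bars). PER1 stood between 71.2 and 90.3 CPM in SIN3A knockdown and between 40.9 and 44.5 CPM in SIN3B knockdown, on either side of control at 62.5 to 66.3 CPM, and HLF had the opposite order of groups.

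Of the 3 period genes, which encode the scaffold of the repressor complex, PER1 (ENSG00000179094, chr17:8140472-8156506, minus strand, GRCh38) moved in opposite directions in the knockdowns. PER1 was at 71.2, 90.3 and 76.6 CPM in SIN3A knockdown, 40.9, 42.6 and 44.5 CPM in SIN3B knockdown, and 66.3, 62.5 and 62.9 CPM in control. The 3 groups did not overlap. On the log2 scale, PER1 rose in SIN3A knockdown by 0.31 ± 0.09 (SE; edgeR adjusted p = 0.0159), to 124% of control. It fell in SIN3B knockdown by -0.58 ± 0.09 (edgeR adjusted p = 1.26e-04), to 66.8% of control. The direct comparison, in which no control library enters the contrast, gave 0.90 ± 0.09 for SIN3A over SIN3B knockdown (edgeR adjusted p = 4.29e-07), and PER1 was 1.86-fold higher in SIN3A knockdown. Without replicate 1 of SIN3A knockdown this difference was 0.98 (edgeR adjusted p = 2.28e-08). The rise in SIN3A knockdown was the weakest of the 3 values. It was no longer called without replicate 2 of SIN3A knockdown (0.21, edgeR adjusted p = 0.0947), without control replicate 2 (0.29, edgeR adjusted p = 0.0702) or with upper-quartile scaling (0.25, edgeR adjusted p = 0.0561). It was 0.40 without replicate 1 of SIN3A knockdown (edgeR adjusted p = 0.00161). In these bulk libraries, fewer cells with a transcript and less of the transcript per cell cannot be told apart.

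PER2 (ENSG00000132326, chr2:238244038-238290102, minus strand), the other period gene that is required for rhythm in mouse, was lower in both knockdowns. Its levels were 6.44, 6.10 and 6.11 CPM in SIN3A knockdown, 4.13, 4.86 and 3.84 CPM in SIN3B knockdown, and 11.1, 9.39 and 7.20 CPM in control. Every library of both knockdowns lay below every control library, and the control libraries had the widest spread. PER2 fell in SIN3B knockdown by -1.11 ± 0.20 on the log2 scale (edgeR adjusted p = 3.72e-04), to 46.3% of control. The fall in SIN3A knockdown was -0.57 ± 0.19 (edgeR adjusted p = 0.0358), to 67.3% of control. PER2 was higher in each SIN3A knockdown library than in any SIN3B knockdown library, but the difference of 0.54 ± 0.20 missed the threshold (edgeR adjusted p = 0.0504, 95% interval 0.12 to 0.95), and the 2 falls are not shown to differ. That difference was called without control replicate 3 (0.55, edgeR adjusted p = 0.038). It was called in 3 of the 19 alternatives, among them the fit without the robust setting, which was run first. The fall in SIN3A knockdown was called in 11 of the 19 alternatives. It was not called without control replicate 1 (-0.42, edgeR adjusted p = 0.197) or 2 (-0.57, 0.0899), or without replicate 1 (-0.58, 0.0571), 2 (-0.56, 0.0767) or 3 (-0.56, 0.0764) of SIN3A knockdown. With all libraries kept, it also missed the threshold in DESeq2 (-0.57, DESeq2 adjusted p = 0.0512). The same held for limma on log2(FPKM + 1) (-0.51, limma adjusted p = 0.0535) and log2(FPKM + 0.1) (-0.54, limma adjusted p = 0.0545). Control replicate 1 held the highest PER2 level.

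PER3 (ENSG00000049246, chr1:7784320-7845177, plus strand), which is dispensable for the core rhythm in mouse, was low in every group. It was at 2.94, 3.44 and 2.19 CPM in SIN3A knockdown, 3.06, 2.65 and 3.36 CPM in SIN3B knockdown, and 3.97, 2.50 and 3.16 CPM in control. The 3 groups overlapped. The 95% intervals of its log2 fold change ran from -0.74 to 0.41 in SIN3A knockdown and from -0.66 to 0.48 in SIN3B knockdown. Changes of about the size seen for PER2 in SIN3A knockdown thus lie inside the intervals for PER3.

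The cryptochromes, which bind and block CLOCK and BMAL1, did not pass the test in any comparison. CRY1 (ENSG00000008405, chr12:106991364-107093829, minus strand) was at 49.7, 47.3 and 49.8 CPM in SIN3A knockdown, 44.7, 44.7 and 43.7 CPM in SIN3B knockdown, and 41.8, 40.9 and 48.1 CPM in control. Control replicate 3 lay inside the range of SIN3A knockdown. The log2 fold change was 0.17 ± 0.09 in SIN3A knockdown (edgeR adjusted p = 0.198) and 0.03 ± 0.09 in SIN3B knockdown (edgeR adjusted p = 0.885). Its intervals, -0.02 to 0.35 and -0.16 to 0.21, were the narrowest of the 10 genes together with those of PER1.

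CRY2 (ENSG00000121671, chr11:45847118-45883248, plus strand) was at 30.7, 32.4 and 24.3 CPM in SIN3A knockdown, 24.3, 21.2 and 27.4 CPM in SIN3B knockdown, and 21.8, 24.6 and 23.7 CPM in control. In SIN3A knockdown, replicates 1 and 2 lay above all other libraries and replicate 3 lay among the controls. The log2 fold change in SIN3A knockdown was 0.32 ± 0.13 (edgeR adjusted p = 0.0766). Without replicate 3 of SIN3A knockdown it was 0.44 (edgeR adjusted p = 0.0141), and SIN3A over SIN3B knockdown was 0.38 (edgeR adjusted p = 0.024), so that library decided both calls.

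The REV-ERB receptors differed from each other. NR1D2 (ENSG00000174738, REV-ERB beta, chr3:23945260-23980618, plus strand) was at 31.1, 25.5 and 41.8 CPM in SIN3A knockdown, 43.5, 48.6 and 42.1 CPM in SIN3B knockdown, and 36.6, 29.4 and 32.1 CPM in control. The SIN3B knockdown libraries lay above all others, and replicate 3 of SIN3A knockdown lay just below them. NR1D2 rose in SIN3B knockdown by 0.45 ± 0.14 on the log2 scale (edgeR adjusted p = 0.0206), to 137% of control, and was lower in SIN3A than in SIN3B knockdown by -0.45 ± 0.14 (edgeR adjusted p = 0.0194). In SIN3A knockdown against control, its log2 fold change was 0.01 ± 0.14, with a 95% interval of -0.28 to 0.29.

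Single libraries carried weight in both calls for NR1D2. The rise in SIN3B knockdown was not called without control replicate 2 (0.37, edgeR adjusted p = 0.136) or 3 (0.44, 0.0727), or without replicate 1 (0.46, 0.0546) or 2 (0.39, 0.108) of SIN3B knockdown. The difference between the knockdowns was not called without replicate 1 (-0.40, edgeR adjusted p = 0.111) or 2 (-0.29, 0.122) of SIN3A knockdown, or without replicate 1 (-0.46, 0.0503) or 2 (-0.38, 0.0974) of SIN3B knockdown. Without replicate 3 of SIN3A knockdown it was -0.66 (edgeR adjusted p = 2.28e-04). Limma on the deposited FPKM values called neither.

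NR1D1 (ENSG00000126368, REV-ERB alpha, chr17:40092787-40100725, minus strand) was at 4.60, 4.85 and 4.07 CPM in SIN3A knockdown, 7.96, 5.75 and 5.92 CPM in SIN3B knockdown, and 6.83, 4.70 and 7.02 CPM in control. The SIN3A knockdown libraries lay below all others except control replicate 2. The log2 fold change was -0.45 ± 0.21 in SIN3A knockdown (edgeR adjusted p = 0.139) and 0.08 ± 0.21 in SIN3B knockdown (edgeR adjusted p = 0.837), and SIN3A over SIN3B knockdown was -0.54 ± 0.21 (edgeR adjusted p = 0.0686). Of its exon bases, 9.49% overlap THRA, a thyroid hormone receptor gene on the opposite strand. THRA was at 40.1 ± 1.9 CPM in SIN3A knockdown, 44.6 ± 4.6 CPM in SIN3B knockdown and 43.7 ± 3.5 CPM in control (SD, n = 3 each). Whether counting used the strand is not given in the sources used here, so the share of THRA reads in the NR1D1 counts was not tested.

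Of the PAR-bZIP factors, HLF (ENSG00000108924, chr17:55265012-55325065, plus strand) moved most. HLF was at 0.92, 1.57 and 1.41 CPM in SIN3A knockdown, 4.59, 3.98 and 4.64 CPM in SIN3B knockdown, and 2.70, 2.97 and 1.76 CPM in control. These rest on 20, 40 and 36 counts in SIN3A knockdown, 120, 108 and 116 counts in SIN3B knockdown, and 68, 76 and 40 counts in control. All of these counts are multiples of 4, as were 98.18% of the nonzero counts of all libraries. The 3 groups did not overlap, in the opposite order to PER1. Between the knockdowns HLF differed by -1.75 ± 0.30 on the log2 scale (edgeR adjusted p = 2.08e-04), so the level in SIN3A knockdown was 0.297 of that in SIN3B knockdown. Without replicate 1 of SIN3A knockdown, the library with the lowest level, it was -1.55 (edgeR adjusted p = 9.41e-04). Against control, HLF fell in SIN3A knockdown by -0.93 ± 0.31 (edgeR adjusted p = 0.0352) and rose in SIN3B knockdown by 0.83 ± 0.29 (edgeR adjusted p = 0.0425).

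Both calls of HLF against control were marginal. The fall in SIN3A knockdown was not called without control replicate 1 (-0.86, edgeR adjusted p = 0.101) or 2 (-0.78, 0.137), without replicate 1 (-0.72, 0.117) or 3 (-0.99, 0.0523) of SIN3A knockdown, or without replicate 3 of SIN3B knockdown (-0.92, 0.0514). The rise in SIN3B knockdown was not called without control replicate 1 (0.89, edgeR adjusted p = 0.0757), 2 (0.96, 0.0549) or 3 (0.63, 0.177), or without replicate 1 (0.78, 0.119), 2 (0.89, 0.0746) or 3 (0.79, 0.125) of SIN3B knockdown. Among the 10 alternatives other than leaving out 1 library, the fall was called in 8 and the rise in 5. The direct difference was called in all 19 alternatives, with values between -1.90 and -1.21.

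The 3′ UTRs of the 10 genes were searched for the 7-base sequences GGTCTAA and AGGTCTA, and for ACAGCCT and CAGCCTT, which an earlier look at these data had picked out. No link between these sequences and a change in level was tested here, and the sites are shown to place the matches. The longest annotated 3′ UTR of HLF (GENCODE 29, transcript ENST00000226067.9) holds 1 copy each of GGTCTAA and AGGTCTA, overlapping, at chr17:55321760-55321787 on the plus strand, with the match in capitals.
HLF: gggaaatgggAGGTCTAAggatgagggg

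Of 13385 tested genes with an annotated 3′ UTR, 8.63% hold GGTCTAA or AGGTCTA in their longest one, and none of the other 9 genes does. The part of this site in the fall of HLF was not tested. The sequences ACAGCCT and CAGCCTT are held by 27.9% of these genes and by TEF, in 2 copies.

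DBP (ENSG00000105516, chr19:48630030-48637438, minus strand), a direct CLOCK and BMAL1 target, was at 15.5, 18.5 and 15.5 CPM in SIN3A knockdown, 13.6, 13.3 and 13.4 CPM in SIN3B knockdown, and 10.3, 16.1 and 12.1 CPM in control. Control replicate 2 lay inside the range of SIN3A knockdown, and the SIN3B knockdown libraries lay inside the control range. The log2 fold change was 0.36 ± 0.15 in SIN3A knockdown (edgeR adjusted p = 0.104) and 0.06 ± 0.16 in SIN3B knockdown (edgeR adjusted p = 0.829). Without control replicate 2 it was 0.55 in SIN3A knockdown and was called (edgeR adjusted p = 0.0235). Of the exon bases of DBP, 10.1% overlap SPHK2, a sphingosine kinase gene on the opposite strand. SPHK2 fell in SIN3A knockdown by -0.78 ± 0.11 (edgeR adjusted p = 5.59e-05), to 17.8 ± 1.0 CPM in SIN3A knockdown, against 30.6 ± 1.0 CPM in control. The part of SPHK2 reads in the DBP counts was not tested.

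TEF (ENSG00000167074, chr22:41367333-41399326, plus strand) was at 7.73, 9.39 and 5.80 CPM in SIN3A knockdown, 6.12, 6.19 and 7.04 CPM in SIN3B knockdown, and 9.22, 7.36 and 8.08 CPM in control. The SIN3B knockdown libraries lay below all control libraries, and the SIN3A knockdown libraries spread over both. The log2 fold change was -0.35 ± 0.19 in SIN3B knockdown (edgeR adjusted p = 0.212, 95% interval -0.75 to 0.05) and -0.11 ± 0.19 in SIN3A knockdown (edgeR adjusted p = 0.746). Its 2 matches are shown because TEF was the one gene of the 10 with ACAGCCT or CAGCCTT, at chr22:41396192-41396218 and chr22:41396528-41396554 on the plus strand.
TEF: atgggtgactCAGCCTTagtttctatt
TEF: gggtctctgcACAGCCTgggatggggc

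**Figure D2:**
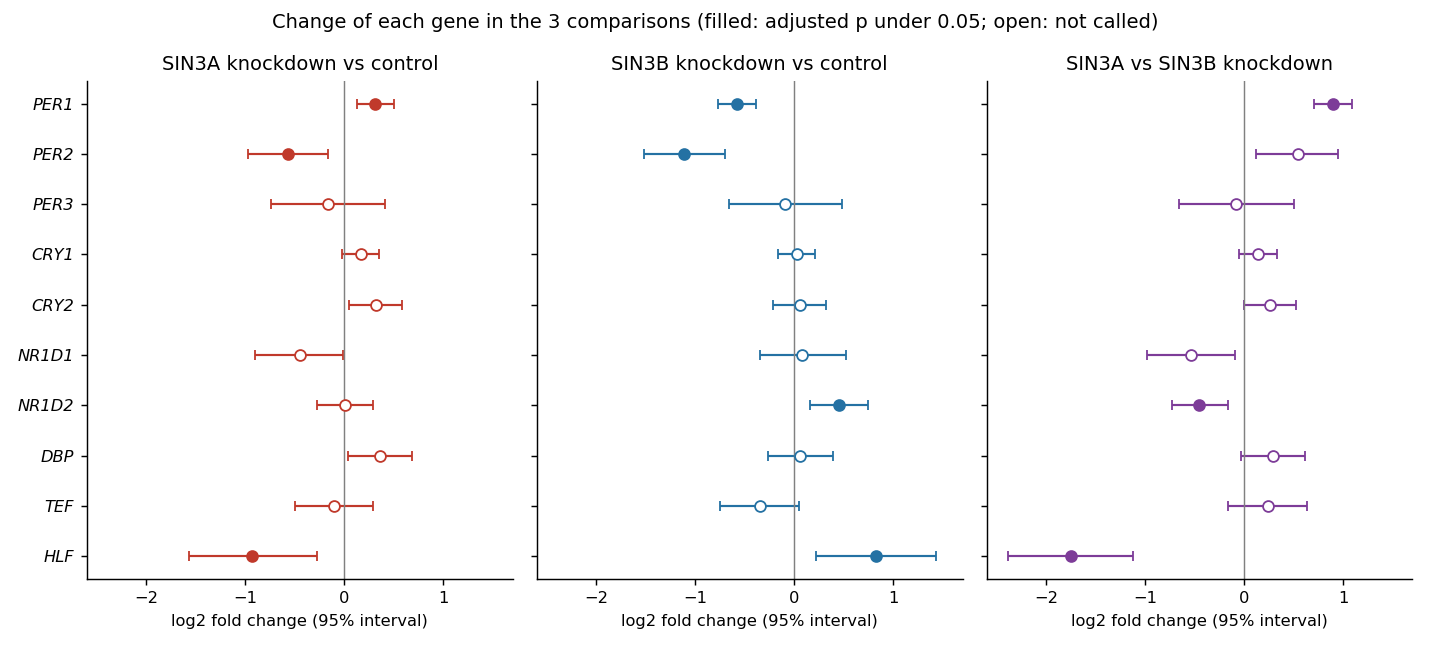
Log2 fold change (x axis) with its 95% interval for each of the 10 genes in SIN3A knockdown over control, SIN3B knockdown over control, and SIN3A over SIN3B knockdown; filled points are called and open points are not. PER1 and HLF lie on opposite sides of 0 in the first 2 panels, and PER2 lies below 0 in both.

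The number of genes called was near the background in each comparison. In SIN3A knockdown against control 1 of the 10 genes rose and 2 fell, where 12.2% of all tested genes rose and 10.8% fell. In SIN3B knockdown against control 2 rose and 2 fell, where 12.0% rose and 11.6% fell. In SIN3A against SIN3B knockdown 1 was higher and 2 were lower, where 14.5% were higher and 12.6% lower. With upper-quartile scaling, 1352 of all genes rose and 2313 fell in SIN3A knockdown, in place of 2029 and 1807. The median log2 fold change of the 10 genes was -0.05, 0.04 and 0.19 in these comparisons, and that of all tested genes was -0.002, -0.015 and -0.02. The libraries of the groups did not overlap for 3, 5 and 7 of the 10 genes, against 36.4%, 43.0% and 39.3% of all tested genes. Both knockdowns were compared with the same 3 control libraries, so a high or low control library enters both contrasts.

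**Figure D3:**
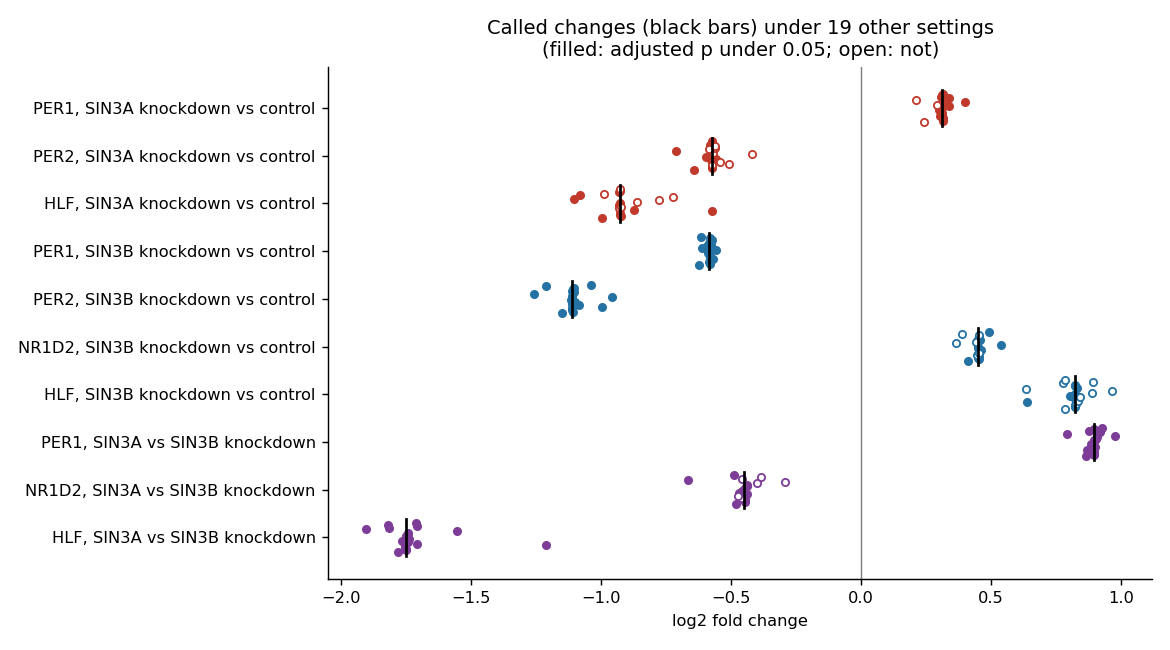
Log2 fold change (x axis) of the 10 called values (black bars) under 19 other settings (points), 1 row per gene and comparison; filled points passed the threshold and open points did not. PER1 and PER2 in SIN3B knockdown, and PER1 and HLF between the knockdowns, were called in all 19, and HLF in SIN3B knockdown in 8. No point crosses 0.

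Per length, the levels of the 10 genes in control libraries spanned from 9.12 ± 0.3 CPM per kilobase of exon for PER1 to 0.375 ± 0.097 for HLF (SD, n = 3 each). The order in control was PER1, CRY1, NR1D2, CRY2, NR1D1, DBP, TEF, PER2, PER3 and HLF. The length used was the union of all annotated exons of a gene, 6544 bases for DBP. It can exceed the length of the transcripts present, so the order depends on this choice. Neighbours in this order whose libraries overlapped were PER1 and CRY1, then NR1D1, DBP, TEF and PER2 in turn, and PER3 and HLF. The top of the order was different in SIN3B knockdown, where PER1 averaged 6.09 ± 0.26 CPM per kilobase, against 8.76 ± 0.11 for CRY1 and 7.69 ± 0.59 for NR1D2. In SIN3A knockdown PER1 averaged 11.3 ± 1.4 CPM per kilobase and CRY1 9.66 ± 0.28. At the low end, HLF averaged 0.197 ± 0.051 CPM per kilobase in SIN3A knockdown and 0.667 ± 0.056 in SIN3B knockdown, where PER2 averaged 0.622 ± 0.077.

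Across the 9 libraries, the log2 levels of PER1 and HLF had a Pearson r of -0.84, and those of PER1 and NR1D2 of -0.76. PER3 and TEF had an r of 0.75, NR1D2 and TEF of -0.76, and DBP and NR1D1 of -0.72. These values describe 9 libraries in 3 groups, and both the differences between groups and the spread within them enter each r. Among 10361 other genes above 3 log2 CPM, the genes with the most similar pattern to PER1 were KPNA6 (r = 0.991) and AMPD2 (0.988), and to PER2 FKBP9 and KDELC2 (0.963 each). Those most like NR1D2 were CLDND1 (0.99) and EMB (0.978), and those most like HLF were ZNF318 (0.976) and KANSL3 (0.972). For PER3, CRY2, NR1D1, DBP and TEF, the highest r was 0.887, 0.934, 0.93, 0.947 and 0.917, with GLG1, SV2A, FAF2, VPS11 and DICER1-AS1.

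Other genes of the clock network were counted in 5 lists. Of all tested genes, 12.2% rose and 10.8% fell in SIN3A knockdown, and 12.0% rose and 11.6% fell in SIN3B knockdown. Between the knockdowns, 14.5% were higher and 12.6% lower in SIN3A knockdown. The activators and the genes that stabilise the loop held 7 tested genes of 8. In SIN3A knockdown none rose and 1 fell, in SIN3B knockdown 1 rose and 1 fell, and between the knockdowns 1 was lower in SIN3A knockdown. NPAS2, a partner of BMAL1 in place of CLOCK, fell to 12.7 ± 2.1 CPM in SIN3A knockdown and 12.6 ± 0.78 CPM in SIN3B knockdown, against 16.7 ± 0.61 CPM in control (log2 fold changes -0.39 ± 0.14 and -0.41 ± 0.14, edgeR adjusted p = 0.0499 and 0.0404). ARNTL2, which encodes BMAL2, rose in SIN3B knockdown to 37.8 ± 1.8 CPM, against 25.7 ± 1.9 CPM in control (0.56 ± 0.10, edgeR adjusted p = 4.84e-04), and was lower in SIN3A than in SIN3B knockdown by -0.38 ± 0.10 (edgeR adjusted p = 0.00772).

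The core activators themselves were not called. ARNTL, which encodes BMAL1, was at 13.9 ± 1.1 CPM in SIN3A knockdown, 15.4 ± 1.2 CPM in SIN3B knockdown and 13.6 ± 0.69 CPM in control. CLOCK was at 22.1 ± 4.9, 27.7 ± 3.6 and 22.3 ± 1.5 CPM in the same order of groups, and its SIN3B knockdown libraries lay above all controls (0.31 ± 0.14, edgeR adjusted p = 0.122). NFIL3, the repressor that competes with the PAR-bZIP factors at D-boxes, was at 26.2 ± 1.4, 24.8 ± 1.2 and 23.3 ± 2.0 CPM. Of the receptors that oppose REV-ERB, RORA was at 9.56 ± 4.6, 11.4 ± 1.3 and 6.87 ± 3.1 CPM and RORB at 2.03 ± 0.47, 2.70 ± 0.35 and 3.31 ± 0.28 CPM. Neither was called in any comparison (edgeR adjusted p = 0.0795 for RORB in SIN3A knockdown).

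Of 6 tested genes among other negative regulators, 3 fell in SIN3B knockdown and none was called in SIN3A knockdown or between the knockdowns. BHLHE40 (DEC1), an E-box repressor, fell in SIN3B knockdown to 91.1 ± 8.4 CPM, against 136 ± 23 CPM in control (-0.57 ± 0.12, edgeR adjusted p = 0.00137). CIART (CHRONO), which binds BMAL1, fell to 2.08 ± 0.56 CPM in SIN3B knockdown, against 4.01 ± 1.2 CPM in control (-0.94 ± 0.30, edgeR adjusted p = 0.0258). TIMELESS, a replication fork protein that binds clock repressors in mammals, fell to 171 ± 4.3 CPM in SIN3B knockdown, against 200 ± 3.6 CPM in control (-0.23 ± 0.06, edgeR adjusted p = 0.0112). The other 3 tested genes of this list were not called in SIN3B knockdown, where 11.6% of all tested genes fell. A link between these falls and those of PER1 and PER2 was not tested. PASD1 was not tested.

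The list of enzymes that act on PER or CRY held 19 genes for kinases, phosphatases, ubiquitin ligases, deubiquitinases or their subunits, among them FBXL21, which GENCODE 29 types as a pseudogene. All 19 were tested: 2 rose and 4 fell in SIN3A knockdown, and 6 rose and 3 fell in SIN3B knockdown. Between the knockdowns 2 were higher and 5 lower in SIN3A knockdown. GSK3B, a kinase of several clock proteins, was at 41.6 ± 2.3 CPM in SIN3A knockdown, 80.7 ± 3.9 CPM in SIN3B knockdown and 58.5 ± 5.2 CPM in control. It fell in SIN3A knockdown (-0.49 ± 0.09, edgeR adjusted p = 5.25e-04), rose in SIN3B knockdown (0.46 ± 0.09, edgeR adjusted p = 6.06e-04) and differed between them by -0.96 ± 0.09 (edgeR adjusted p = 1.17e-07). Its order of groups was that of HLF. FBXW11, one of the beta-TrCP ligase subunits that bind phosphorylated PER, fell in SIN3B knockdown to 55.7 ± 4.0 CPM, against 83.9 ± 1.5 CPM in control (-0.59 ± 0.08, edgeR adjusted p = 3.74e-05). The catalytic AMPK subunits PRKAA1 and PRKAA2 rose in both knockdowns, PRKAA1 by 0.63 ± 0.18 in SIN3A knockdown and 1.22 ± 0.18 in SIN3B knockdown. The deubiquitinase USP2 fell in both, by -0.47 ± 0.14 in SIN3A knockdown and -0.63 ± 0.14 in SIN3B knockdown, and USP7 fell in SIN3B knockdown (-0.34 ± 0.07). CSNK2A1, a catalytic subunit of casein kinase 2, fell in SIN3A knockdown (-0.30 ± 0.06, edgeR adjusted p = 0.00134). The other fall in SIN3A knockdown was that of the phosphatase gene PPP5C (-0.20 ± 0.06, edgeR adjusted p = 0.0299), named after its values were seen. SIN3A over SIN3B knockdown was 0.74 ± 0.08 for FBXW11, 0.33 ± 0.07 for USP7, -0.20 ± 0.06 for CSNK2A1 and -0.27 ± 0.07 for GSK3A.

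All 21 chromatin and RNA-binding partners of PER and REV-ERB complexes were tested. In SIN3A knockdown 5 rose and 2 fell, where 12.2% of all tested genes rose and 10.8% fell. In SIN3B knockdown 8 rose and none fell, where 12.0% rose and 11.6% fell. HDAC1, the deacetylase carried by SIN3, rose to 377 ± 9.6 CPM in SIN3A knockdown and 351 ± 5.9 CPM in SIN3B knockdown, against 271 ± 12 CPM in control (0.48 ± 0.06 and 0.38 ± 0.06, edgeR adjusted p = 1.88e-05 and 1.81e-04). The HP1 protein CBX3 rose in both (0.31 ± 0.07 and 0.44 ± 0.07), and the splicing factor SFPQ rose in SIN3B knockdown (0.27 ± 0.06). RBBP4, a histone-binding subunit of SIN3 and NuRD complexes, fell in SIN3A knockdown to 238 ± 3.8 CPM, against 365 ± 13 CPM in control (-0.61 ± 0.06, edgeR adjusted p = 8.81e-07), as did NONO (-0.28 ± 0.06). Between the knockdowns 1 gene was higher in SIN3A knockdown, HDAC3 (0.28 ± 0.07), and 7 were lower, among them KDM5A (-0.55 ± 0.09), RBBP4 (-0.52 ± 0.06) and MTA2 (-0.28 ± 0.07).

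Of 20 clock-controlled genes outside the loop, 18 were tested: 3 rose and 4 fell in SIN3A knockdown, and 2 rose and 6 fell in SIN3B knockdown. USP2 is counted here as well as among the enzymes. The cell-cycle inhibitor CDKN1A was at 137 ± 14 CPM in SIN3A knockdown, 47.5 ± 3.9 CPM in SIN3B knockdown and 75.3 ± 2.9 CPM in control, in the order of groups seen for PER1. It rose in SIN3A knockdown (0.87 ± 0.09, edgeR adjusted p = 8.08e-07) and fell in SIN3B knockdown (-0.66 ± 0.09, edgeR adjusted p = 1.88e-05). TSC22D3 (GILZ) fell in both (-0.76 ± 0.07 and -0.54 ± 0.07), and PPARA (0.67 ± 0.13) and NAMPT (0.23 ± 0.07) rose in SIN3A knockdown. MYC fell in SIN3B knockdown (-0.64 ± 0.07), where CCNA2 rose (0.44 ± 0.07). MYC fell in SIN3A knockdown too (-0.22 ± 0.07, edgeR adjusted p = 0.0232), a value named after it was seen. Between the knockdowns 6 were higher in SIN3A knockdown, among them CDKN1A (1.53 ± 0.09), MYC (0.42 ± 0.07) and VEGFA (0.39 ± 0.10), and 3 were lower, among them TSC22D3 (-0.21 ± 0.07) and CCNA2 (-0.47 ± 0.07). The lists were chosen with earlier results of these data known, and their counts stand beside a background of 10.8% to 12.2% of genes per direction against control. Between the knockdowns, the background was 14.5% higher and 12.6% lower in SIN3A knockdown.

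**Figure D4:**
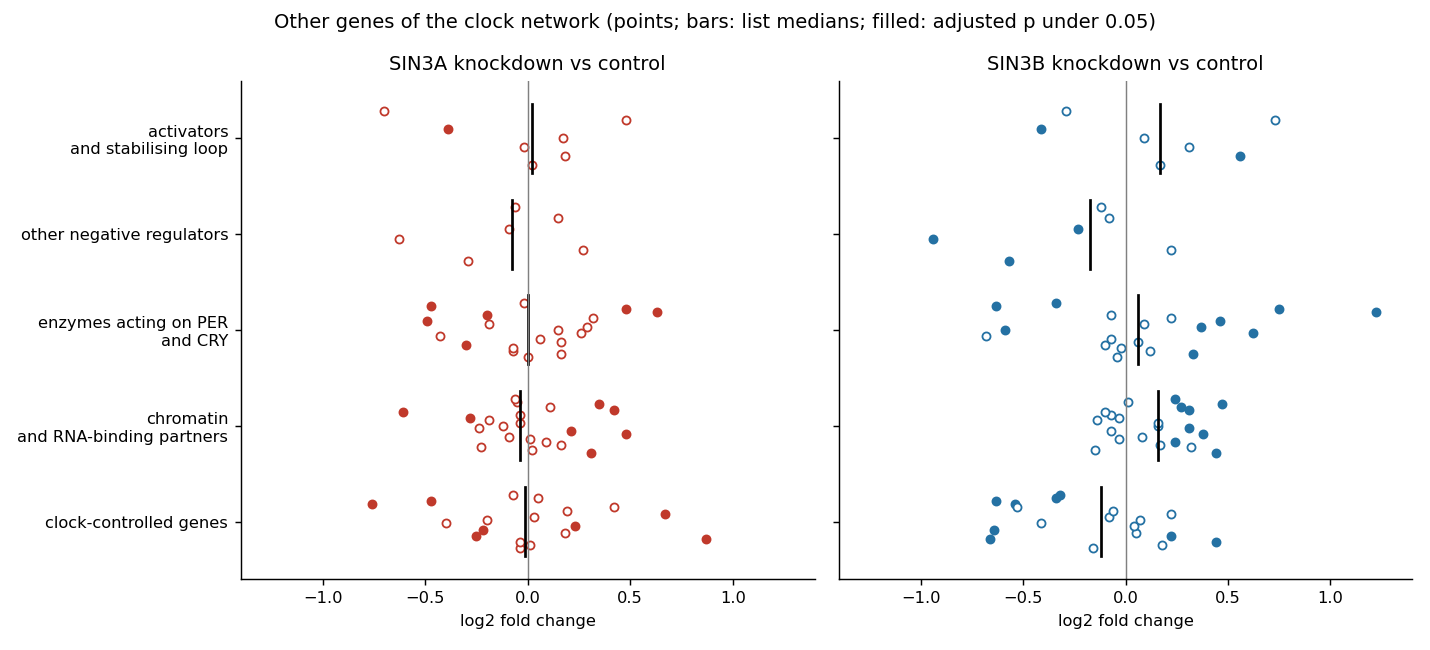
Log2 fold change (x axis) of the tested genes of 5 lists of the clock network (rows) in SIN3A knockdown over control and SIN3B knockdown over control; points are genes, filled where called, and black bars are list medians. The medians lie between -0.08 and 0.02 in SIN3A knockdown and between -0.17 and 0.17 in SIN3B knockdown, with called genes on both sides of 0 in most lists.

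Of 47 changes that the naming rule given below picked from these lists, 37 were called in all 19 alternatives, and the other 10 lost the call in at least 1. Most were picked for a low adjusted p, so this share does not describe the lists as a whole. The fall of NPAS2 was the least stable. In SIN3A knockdown it was called in 4 alternatives, and among fits that left out 1 library it was called only without replicate 2 of SIN3A knockdown, with -0.26 without replicate 1 of that group. In SIN3B knockdown it was called in 11, and not without any 1 of the control libraries (-0.39, -0.45 and -0.39) or without replicate 2 (-0.38) or 3 (-0.38) of SIN3B knockdown.

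Replicate 3 of SIN3A knockdown carried the AMPK subunits: without it PRKAA1 was at 0.28 and PRKAA2 at 0.30, neither called. PRKAA1 was at 52.3 CPM in that library, against 27.0 and 30.4 CPM in the other SIN3A knockdown libraries. PRKAA1 also lost its call without control replicate 2 (0.62) or 3 (0.59), and PRKAA2 without control replicate 2 (0.43). In SIN3A knockdown, USP2 was not called without control replicate 2 (-0.48) or 3 (-0.36) or SIN3A knockdown replicate 1 (-0.36), and NAMPT without control replicate 1 (0.19) or 2 (0.23) or SIN3A knockdown replicate 3 (0.22). In SIN3B knockdown, TIMELESS was not called without control replicate 1 (-0.21) or SIN3B knockdown replicate 2 (-0.21), and CIART without control replicate 2 (-0.97) or 3 (-0.69) or SIN3B knockdown replicate 3 (-0.74). Between the knockdowns, CSNK2A1 was not called without replicate 1, 2 or 3 of SIN3B knockdown (-0.20, -0.21 and -0.20), nor was TSC22D3 (-0.21, -0.22 and -0.21), which also lost the call without replicate 2 of SIN3A knockdown (-0.18).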

How the data were processed

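Poly-A selected, stranded TruSeq libraries of HEK293T cells were read from a table of counts per Ensembl gene that the authors deposited. Per the submitters' processing notes, reads were trimmed with Trimmomatic 0.36, aligned to GRCh38 with HISAT2 2.1.0 and counted with HTSeq, and DESeq2 1.20.0 is named, of which no result was used. The authors also deposited FPKM values of the same genes and libraries, used here in alternatives only. Whether counting used the strand is not given in the sources used here.

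Counts were fitted in edgeR 4.0.16 (R 4.3.3) with TMM factors, filterByExpr (minimum count 10, minimum total count 15) and a robust quasi-likelihood F-test, all 9 libraries in 1 fit with 6 residual degrees of freedom. P-values are two-sided and adjusted by Benjamini-Hochberg over 16686 genes within each of 3 comparisons. All genes were tested and the rows of the 10 genes and of 5 lists are printed. The test was checked on simulated data for each knockdown against control: it missed part of the planted changes of 2-fold and 1.5-fold, and the false share of its calls was somewhat above the threshold of 0.05, so marginal calls are uncertain and a gene that was not called may still differ. The robust setting was chosen after the values of the 10 genes had been seen without it.

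The 10 genes and the lists were chosen with earlier results of these data known. All 10 are named, with the targets, all activators, and in the other lists up to 3 called genes per direction by adjusted p in each comparison; a few genes that this rule names are not reported here. Similar genes are the 2 with the highest Pearson r of log2 CPM. Exon lengths and coordinates are from GENCODE 29, in which all 58734 IDs were found. Same-numbered libraries did not deviate together (correlations -0.228 to 0.077), so the numbers were not used as pairs. Libraries of different groups and numbers had correlations of -0.185 to 0.282. The highest was between replicate 2 of SIN3A knockdown and replicate 1 of SIN3B knockdown. A batch shared under other numbers was not tested.

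Alternatives were upper-quartile and median-ratio scaling, no filter, DESeq2 1.42.0, limma 3.58.1 on log2(FPKM + 1) and log2(FPKM + 0.1), the 6 libraries compared alone, a replicate block, counts divided by 4 and leaving out each library. The first fit, without the robust setting, was kept as a further alternative that was not planned as one. Precision is limited by 3 libraries a group, and figures were drawn with matplotlib 3.10.9.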

Additional observations from a re-analysis of the deposited data

Results flagged for a closer look

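Among the 10 genes, PER1 and HLF were called against control in opposite directions in the knockdowns, and the direct test of the difference was called as well. The difference, SIN3A minus SIN3B knockdown on the log2 scale, was 0.90 for PER1 and -1.75 for HLF. It was called for both genes in all 19 alternatives, whereas the call of HLF in SIN3B knockdown against control was kept in 8. Among the genes of the clock lists named here, the same held for GSK3B (-0.96) and CDKN1A (1.53).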

How the results depend on the processing

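The number of the 10 genes called moved most when single libraries were left out: between 1 and 3 in SIN3A knockdown (3 in all 9 libraries), between 2 and 4 in SIN3B knockdown (4) and between 2 and 4 between the knockdowns (3). Limma on log2(FPKM + 0.1) called 2 in SIN3B knockdown. With the replicate number as a block, HLF lost its calls against control (-0.92, edgeR adjusted p = 0.0525, in SIN3A knockdown, and 0.84, 0.0555, in SIN3B knockdown), leaving 2, 3 and 3 genes called. Without the robust setting, as in the first fit, PER2 was called between the knockdowns (0.54, edgeR adjusted p = 0.0449). The robust setting was adopted after the values of that first fit had been seen.

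Signs turned only in values that were not called. With upper-quartile factors these were NR1D2 (-0.065) and ARNTL (-0.046) in SIN3A knockdown, CRY1 (-0.013) in SIN3B knockdown and NPAS2 (-0.016) between the knockdowns. NR1D2 in SIN3A knockdown was also -0.014 and -0.015 in the FPKM fits, -0.007 with the block and -0.008 with counts divided by 4. Leaving out 1 library turned signs as follows. In SIN3A knockdown, PER3 ranged from -0.326 to 0.015, NR1D2 from -0.209 to 0.16, TEF from -0.284 to 0.062, ARNTL from -0.024 to 0.068 and CLOCK from -0.216 to 0.084. In SIN3B knockdown, PER3 ranged from -0.253 to 0.095, CRY1 from -0.032 to 0.104, CRY2 from -0.036 to 0.147, NR1D1 from -0.099 to 0.185 and DBP from -0.073 to 0.248. Between the knockdowns, PER3 ranged from -0.238 to 0.08, NPAS2 from -0.095 to 0.142 and RORA from -0.699 to 0.021. The cause was not tested. HLF and PER3 rest on the fewest counts, which limits what 3 libraries can show for them.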
